A study of Mus musculus with 8 samples.

Results

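The clustered protocadherin genes of the mouse lie side by side on chromosome 18 (mm10) and encode cell-surface adhesion proteins of the cadherin superfamily. They were chosen by position and name, as the protein-coding genes of GENCODE M21 on this chromosome that carry a symbol of the Pcdha, Pcdhac, Pcdhb, Pcdhga, Pcdhgb or Pcdhgc series, so the rule itself uses no measured value, although the family was picked with earlier results of these data known. The rule found 57 gene records with 56 symbols, because 2 records carry the symbol Pcdha11, among 21938 protein-coding genes. All 57 are transcribed from the plus strand. Their span, from the first base of Pcdha1 at 36930184 to the last base of the gamma genes at 37841873, is 912 kb long and held 20 of the 57124 consensus regions of open chromatin in the series.

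The assay was ATAC-seq, which uses the transposase Tn5 to place sequencing adapters into DNA that is not packed away. The cells were medullary thymic epithelial cells (mTECs), sorted as Epcam-positive, CDR1-negative and CD45-negative cells from the thymus of wild-type mice a few weeks old. Sorting on Tspan8 and MHC class II gave 4 groups with 2 biological replicates each, named Tspan8neg MHCIIlow, Tspan8neg MHCIIhigh, Tspan8pos MHCIIlow and Tspan8pos MHCIIhigh, and all 8 samples were genotype wt. The study asked how open chromatin differs between these groups. The 8 columns of read counts carry names that match no sample label, so no group is compared here, the depth of the samples is not given, and a region may come from any of the 8 samples, from many cells or from few. Markers of cell types were looked at once. A region at a start was present at 7 of 7 for mTECs (Epcam, Krt5, Krt8, Aire, H2-Ab1, Tspan8 and Cd80). It was present at 0 of 4 for thymocytes or leukocytes (Cd3e, Cd4, Cd8a and Ptprc), compared with 62.7% of all protein-coding genes. Epcam, Tspan8 and MHC class II had also been used for the sort, and so few genes do not measure the purity of the cells.

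In the alpha and gamma parts of the cluster, each variable exon has a promoter of its own and is spliced to constant exons shared by the whole part, whereas each beta gene is a single exon. Neurons choose among the promoters at random, so that each cell displays its own set of protocadherins and recognises its own branches, and the architectural protein CTCF and the cohesin ring bring the chosen promoter to distant enhancers. The C-type genes Pcdhac1, Pcdhac2, Pcdhgc3, Pcdhgc4 and Pcdhgc5 are set apart, as their expression in neurons does not follow this random choice. mTECs express many genes of other tissues as self-antigens. The regions show at which starts of this family open chromatin was called, and a start without a region is not thereby shown to be closed. Expression of the family is not given here.

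Of the 57 genes, 7 had a region whose centre lay within 1 kb of an annotated start, compared with 62.7% of all protein-coding genes (13752 of 21938) and with 349 of the 513 on the same chromosome. The 7 genes were Pcdhac1, Pcdhac2, Pcdhb1, Pcdhgb6, Pcdhgb7, Pcdhgc3 and Pcdhgc4. As a share this was 12.3% of the cluster (95% Wilson interval 6.08 to 23.3, which covers counting error over genes only). The subfamilies were unequal. A region was present at 4 of 5 C-type genes, 2 of 6 gamma B genes, 1 of 22 beta genes, 0 of 12 alpha genes and 0 of 12 gamma A genes. Genes are not replicates of the experiment, and these shares are descriptions with no test.

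**Figure D1:**
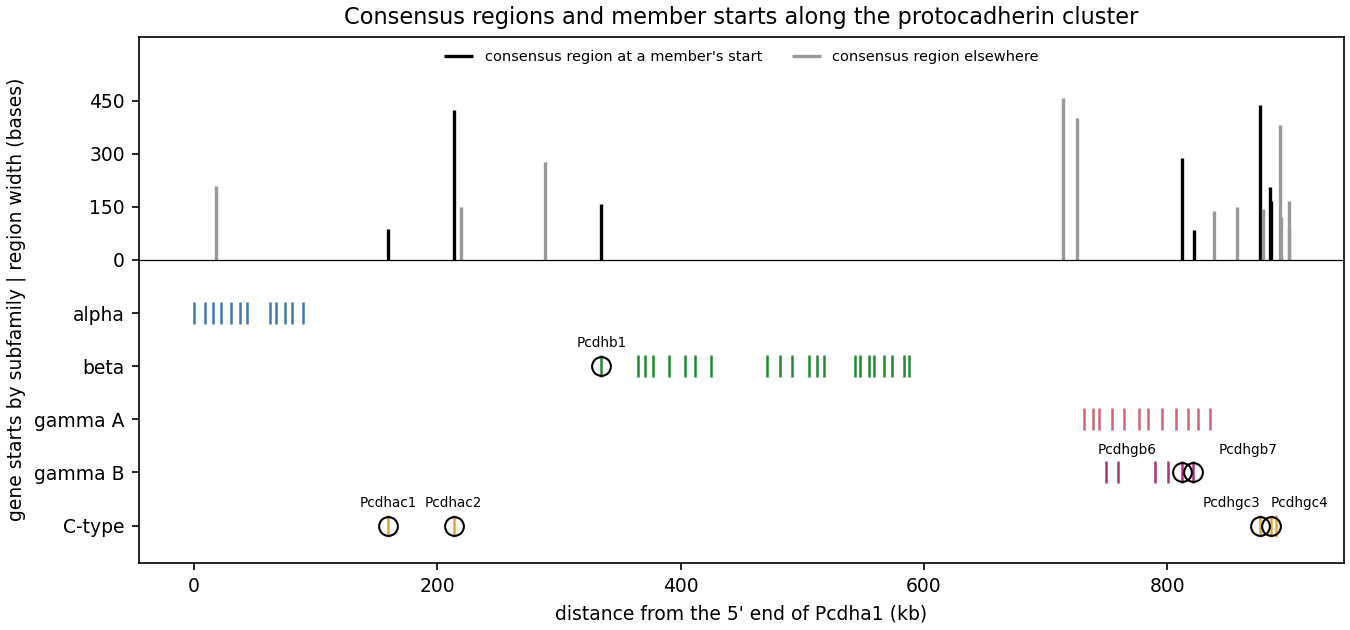
Map of the cluster, with distance from the 5′ end of Pcdha1 in kb on the horizontal axis. Upright bars show the 20 consensus regions, their height the width in bases and black those at a member's start, and ticks below show the 57 gene starts by subfamily, with a circle around the 7 that have a region within 1 kb. The alpha, beta and gamma A rows hold 1 circle in all, at Pcdhb1.

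Pcdhac1, the first C-type gene of the alpha part, had a narrow region of 86 bases from 37089908 to 37089993, whose centre was 63 bases before the start and which touched no annotated exon. Pcdhac2, the other C-type gene of the alpha part, had a region of 424 bases from 37143747 to 37144170. Its centre lay 455 bases after the start, and it overlapped the untranslated and the coding part of the first exon. These 2 genes are the last of the alpha part before its constant exons.

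Pcdhb1, which lies apart from the other beta genes at the end nearest the alpha part, had a region of 157 bases from 37264805 to 37264961 with its centre 55 bases before the start. It overlapped the untranslated part of the exon. Among the genes in the middle of the gamma part, Pcdhgb6 had a region of 287 bases from 37742029 to 37742315, and Pcdhgb7 had one of 85 bases from 37751769 to 37751853. The centres lay 78 and 211 bases after the starts, and both regions overlapped untranslated and coding sequence of the variable exon. Pcdhga10, named for its place between those 2 genes after the values had been seen, had no region, and its nearest region centre was 4818 bases away.

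Pcdhgc3, the first C-type gene of the gamma part, had the widest region at a start of the cluster, 437 bases from 37806148 to 37806584, with its centre 44 bases before the start and across untranslated and coding sequence. Pcdhgc4 had 2 regions. One of 165 bases, from 37815275 to 37815439, overlapped the untranslated part of the exon with its centre 44 bases before one of the annotated starts, and the other of 207 bases, from 37814540 to 37814746, lay 436 bases before the other start and touched no exon. Pcdhgc5, the last gene of the cluster, was the C-type gene without a region at its start, and its nearest region centre was 3137 bases downstream.

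The limit of 1 kb fell in a wide gap in the distances. The farthest gene inside it was Pcdhac2 at 455 bases, and the nearest outside were Pcdha3 at 2179, Pcdhga12 at 2678, Pcdhgc5 at 3137, Pcdhga11 at 3920 and Pcdha4 at 4364 bases. The regions near Pcdha3 and Pcdhga12 were not upstream of the genes but within their coding variable exons. Of the 50 genes without a region, 6 had a region centre within 5 kb, 30 had one between 5 and 100 kb away, and 14 had none within 100 kb. The 14 were Pcdhb9 to Pcdhb22, and the farthest were Pcdhb14 at 182773 bases, Pcdhb13 at 177617 and Pcdhb12 at 170738. The median distance was 22.4 kb for alpha, 138 kb for beta, 14.8 kb for gamma A, 16.5 kb for gamma B and 63 bases for C-type genes, compared with 0.192 kb for all protein-coding genes.

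The longest stretch of the cluster without a region ran from the region at Pcdhb1 to that at Taf7 and was 379 kb long. It held the starts of 21 members, Pcdhb2 to Pcdhb22, together with that of Slc25a2, which encodes a mitochondrial carrier. Of the 57103 gaps between neighbouring regions in the genome, 927 (1.62%) were as long or longer, and 28 held as many protein-coding starts or more. A gap of 146 kb, which began before the span and ended at the region in the exon of Pcdha3, held the 3 starts of Pcdha1 to Pcdha3. The next gap, of 142 kb between the exon of Pcdha3 and Pcdhac1, held the starts of 9 alpha records from Pcdha4 to Pcdha12. Another of 86.1 kb held 13 gamma A and B starts from Pcdhga1 to Pcdhga9.

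The far end of the cluster was the opposite. From 1 kb before the start of Pcdhgc3 to the end of the span, 36.5 kb held 8 of the 20 regions, or 219 per Mb, whereas the 227 kb around Pcdhb2 to Pcdhb22 held 0. The 94.0 kb around the alpha variable genes held 1 region, or 10.6 per Mb, and the 108 kb around the gamma A and B genes held 3, or 27.8 per Mb. Averaged over the span the cluster had 21.9 regions per Mb, which was close to the 21.4 per Mb of its chromosome although it holds 62.5 member starts per Mb.

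**Figure D2:**
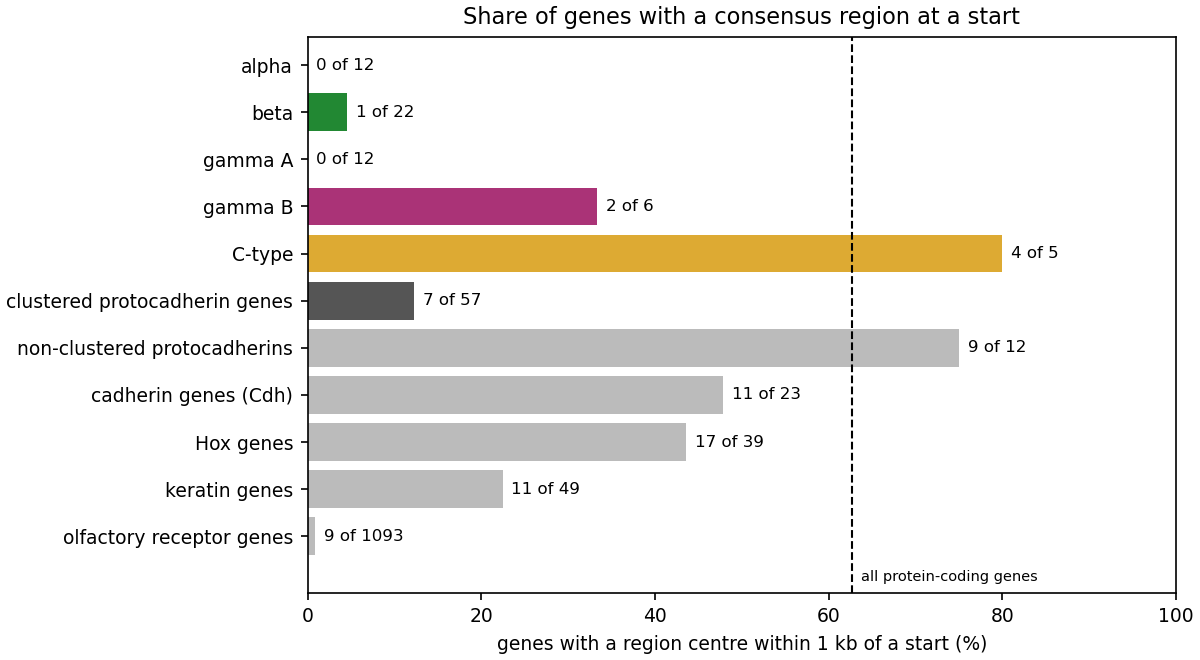
Share of genes with a region centre within 1 kb of a start, in percent, for the protocadherin subfamilies (coloured), all 57 clustered genes (dark grey) and other families (light grey), with counts beside the bars. The dashed line marks the 62.7% of all protein-coding genes, which only the C-type genes (4 of 5) and the non-clustered protocadherins (9 of 12) exceed among the bars shown.

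Protocadherin genes outside the cluster are spread over several chromosomes. Of 12 of them, 9 had a region at a start, and at Pcdh1, Pcdh7, Pcdh8, Pcdh9, Pcdh10, Pcdh17, Pcdh18, Pcdh19 and Pcdh20 the centre lay between 12 and 316 bases from it. Pcdh12, Pcdh15 and Pcdh11x had none within 1 kb. A region was present at 11 of 23 Cdh genes, which encode the classical and related cadherins. Among families in tandem arrays, 17 of 39 Hox genes, which pattern the body axis, 11 of 49 keratin genes and 9 of 1093 olfactory receptor genes had one. The clustered protocadherins (12.3%) lay between the olfactory receptors (0.823%) and the keratins (22.4%), whose interval (13.0 to 35.9) overlapped that of the cluster.

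Of 17 genes known to act on the cluster or on DNA methylation, 16 had a region at a start, which is near the ordinary share for genes of their CpG content. The number of CpG dinucleotides around the 5′ end, divided by the number that its content of C and G would give, was 0.6 or more in 15 of the 17, and 95.3% of all protein-coding genes with such a ratio had a region. The 16 were Ctcf, the cohesin genes Rad21, Smc1a, Smc3, Stag1 and Stag2, the cohesin loader Nipbl and releaser Wapl, Smchd1, which is known to repress clustered protocadherins, the histone methyltransferase Setdb1 with its partner Trim28, the DNA methyltransferases Dnmt1, Dnmt3a and Dnmt3b, and Tet2 and Tet3. The exception was Tet1, one of the enzymes that oxidise methylated cytosine, with its nearest region centre 1932 bases away and a CpG ratio of 0.270. Dnmt1, the other gene below 0.6, had a ratio of 0.059 at its 5′ end and a region centre 169 bases from an annotated start. The ratio was taken at the 5′ end alone and the distance from the nearest of all annotated starts, so these values may describe different places.

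Of the 20 regions, 8 lay at starts of members and 12 elsewhere in the span. Among the 12, 3 overlapped coding variable exons of Pcdha3, Pcdhga12 and Pcdhgc3 more than 1 kb from the start, 5 overlapped exons of other genes, that at Pcdhga12 counted in both, and 5 touched no annotated exon. The 5 widest were the region of 456 bases from 37644048 to 37644503 at the promoter of Taf7, which encodes a subunit of the general transcription factor TFIID, that of 402 bases from 37655573 to 37655974 at the start of the noncoding gene 3222401L13Rik, that of 382 bases from 37822513 to 37822894 downstream of Pcdhgc5, that of 276 bases from 37218200 to 37218475 and that of 209 bases from 36948180 to 36948388 in the exon of Pcdha3. The region from 37218200 lay between the alpha and the beta parts, with its centre at -46601 bases relative to the start of Pcdhb1, and outside every member gene. The region of 382 bases lay in an intron shared by 21 members of the gamma part.

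The span also held the starts of 28 gene records that are not members, and 5 of these had a region within 1 kb. They were Taf7, 3222401L13Rik, Gm26672, Gm38182 and Gm29994. The 23 without one included the protein-coding records Slc25a2, Gm42416, Gm37013 and Gm37388 and the protocadherin Pcdhgb8, which the annotation calls a polymorphic pseudogene and whose nearest region centre was 6379 bases away. The others were Gm37751, Gm38225, Gm37753, Gm36858, Gm18150, Gm10545, Gm19035, Gm38097, Gm10544, Gm18529, Gm20162, Gm37446, 4930517L18Rik, Gm8242, Gm37118, Gm24401, Gm37165 and BC037039. The region in the exon of Pcdhga12 lay 16 bases from the start of Gm26672, which is read from the opposite strand.

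**Figure D3:**
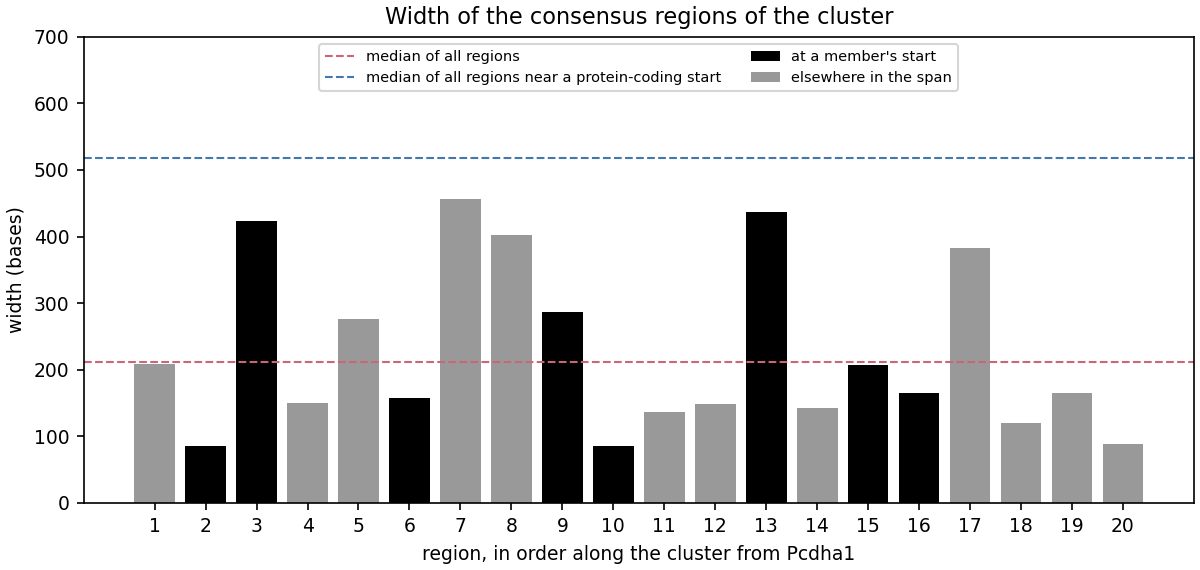
Width in bases of each of the 20 regions in order along the cluster, black at a member's start and grey elsewhere. Dashed lines mark the median of all regions (212 bases) and of all regions near a protein-coding start (518 bases), and none of the 20 bars reaches the latter.

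The 8 regions at member starts were narrow for promoters. They measured 85, 86, 157, 165, 207, 287, 424 and 437 bases, with a median of 186, compared with a median of 518 (quartiles 311 and 738) over the 14653 regions within 1 kb of any protein-coding start. Under 200 bases were 4 of the 8, against 14.8% of those 14653. The 12 other regions of the cluster, with a median of 158 bases, were close in width to the 42471 regions away from protein-coding starts, with a median of 168. The 12 lie away from member starts only, and they include the region of 456 bases at the start of the protein-coding gene Taf7. The width comes from the peak caller and from the merging of called peaks, and was not compared between groups. The content of G and C was 61.0% (median) in the 8 regions at starts and 53.7% in the other 12. It was 65.7% over all regions near a protein-coding start, 51.45% over those away from one and 53.9% over all regions. No repeat base was found in 15 of the 20, compared with 29280 of all 57124 regions. The region of 89 bases from 37830289 to 37830377, downstream of Pcdhgc5, was the one made mostly of repeats, at 78.7%.

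The sequence around the starts was read from the reference genome. CpG dinucleotides, whose loss marks DNA that is methylated in the germ line, were counted within 500 bases of each 5′ end and divided by the number that the content of C and G would give. The median of this ratio was 0.686 in alpha, 0.378 in beta, 0.588 in gamma A, 0.650 in gamma B and 0.670 in C-type genes, compared with 0.571 over all protein-coding genes. A ratio of 0.6 or more was found in 22 of the 57 genes, and 5 of these 22 had a region. Over all protein-coding genes, 9929 of the 10418 with such a ratio (95.3%) had one. Below 0.6, a region was present at 2 of 35 members, Pcdhac1 and Pcdhb1, and at 33.2% of 11520 protein-coding genes.

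In the alpha part, 11 of 12 records had a ratio of 0.6 or more and 0 of them had a region. Of the 22 members with such a ratio, 19 had less than 50% G and C, as had 332 of the 10418 protein-coding genes with such a ratio. When only these were kept, 2 of 19 members had a region, Pcdhgb6 and Pcdhgb7, compared with 276 of 332 protein-coding genes (83.1%). Of the members with a region, Pcdhgc3 had the highest ratio at 0.798 and Pcdhb1 the lowest at 0.519, which was nevertheless the highest of the 22 beta genes. Pcdhga11 had the highest ratio of the cluster at 0.864 and no region. Pcdhgc5 had a ratio of 0.233 and stood apart from the other C-type genes, which lay between 0.564 and 0.798.

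**Figure D4:**
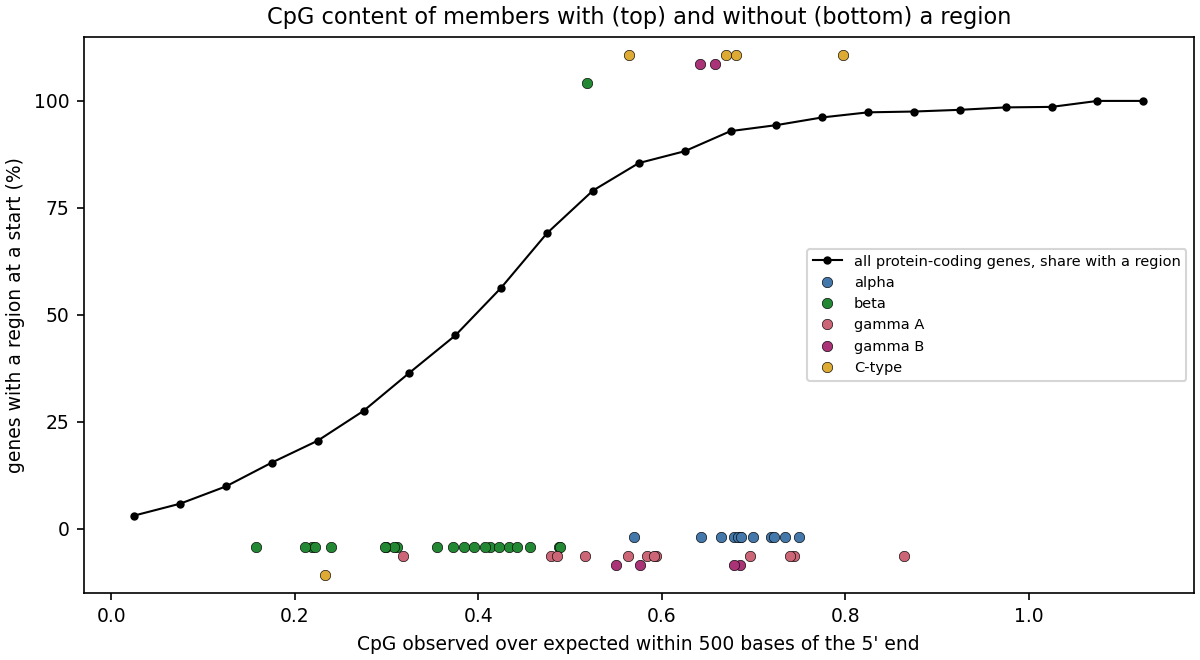
CpG observed over expected within 500 bases of the 5′ end (horizontal axis) for the 57 genes, plotted above 100% where a region lay within 1 kb of a start and below 0% where none did, with a small offset for each subfamily. The line gives the share of all protein-coding genes with a region, in percent, in steps of 0.05 with at least 20 genes, and most alpha, gamma A and gamma B genes lie at the bottom, in the range where the line is high.

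Content of G and C at the starts was 44.9% (median) in the cluster and 55.2% over all protein-coding genes. In the 7 genes with a region it lay between 49.4% and 58.4%, whereas the alpha genes lay between 42.5% and 46.7% and the beta genes without a region below Pcdhb1, which had 49.8%. Pcdhgc5, at 52.8%, was the gene without a region that lay inside the range of the 7. Soft-masked repeats took up 9.19% (median) of the sequence at the starts, compared with 9.39% over all protein-coding genes.

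Because reads that fit several places had been discarded, the share of words of 100 bases that occur once in the genome was computed within 500 bases of each 5′ end. This share was 100% at 42 of the 57 starts, compared with 19038 of the 21938 protein-coding genes. It was 100% at all 7 members with a region, compared with 13049 of the 13752 protein-coding genes with one. By subfamily it was 100% at 2 of 12 alpha, 19 of 22 beta, 12 of 12 gamma A, 4 of 6 gamma B and 5 of 5 C-type genes. The share was lowest in the alpha genes, from 80.2% to 100% with a median of 95.1%, and it was 98.2% or more in every beta gene. With words of 31 bases the median was 77.5% in alpha, 80.1% in gamma B and 100% in beta genes, and Pcdhgb6 and Pcdhgb7, which had regions, had 79.7% and 80.4%. Of the 50 genes without a region, 35 had only words of 100 bases that occur once. The same held for 5989 of the 8186 protein-coding genes without a region. The part that repeated sequence plays in the missing regions was not tested.

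Promoters of clustered protocadherins are known to share a short conserved element around the letters CGCT. CGCT on the strand of the gene was found within 150 bases before the 5′ end in 45 of the 57 genes, compared with 35.3% of all protein-coding genes, and where it occurred within 300 bases its median position was 61 bases before the start. The 12 genes without it were Pcdha5, 1 record of Pcdha11, Pcdhac2, Pcdhb1, Pcdhb6, Pcdhb8, Pcdhb13, Pcdhb17, Pcdhb22, Pcdhga12, Pcdhgc4 and Pcdhgc5. Of the 7 genes with a region, 4 had it and 3 (Pcdhac2, Pcdhb1 and Pcdhgc4) lacked it, while 48.1% of all protein-coding genes with a region had it. Of the 45 members that had it, 4 had a region, compared with 6609 of the 7741 protein-coding genes that had it (85.4%). The count among the 7 depended on the window. Within 300 bases 6 of the 7 had CGCT, all but Pcdhac2, compared with 64.8% of all protein-coding genes with a region. The window of 150 bases was chosen after the positions had been seen, and a match is a description and not a site.

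A core motif of CTCF, 12 positions long and searched on both strands, was found in 0 of the 20 regions and within 500 bases of 0 of the 57 starts. Over all regions 3.94% held it, and over all protein-coding genes 0.998% had it within 500 bases of the 5′ end. The absence of these letters does not bear on binding of CTCF, which accepts many other sequences.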

How the data were processed

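ATAC-seq had been performed on sorted mTECs. The authors aligned paired-end reads to mm10 with Bowtie2, removed mitochondrial, multimapping and low-quality reads with SAMtools and duplicates with Picard. They ran MACS2 for broad peaks and bedtools for merging, and the file header names featureCounts 2.0.3 for counting. Whether each sample or a pool was given to the peak caller is not given in the sources used here. The deposited values used were the first base, last base and width in bases of each merged region. A further 8 columns of read counts had names that match no sample label and were not used in any step, so neither CPM nor a comparison of groups is given.

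Regions were compared with GRCm38, the assembly of mm10 (0 chromosomes had a region past the end), and were assigned by their centre to transcript starts of the GENCODE M21 basic set within 1 kb. Named were all genes with a region, the 5 nearest and 3 farthest without one, the 5 widest other regions, and all other genes with a start in the span. The members and lists were chosen with earlier results of these data known. The limits of 0.6 for CpG content, 50% for G and C and 5 and 100 kb for distances were chosen after the values had been seen. Functions for distances and words were tested on simulated data. Scripts used numpy 2.4.6, numba 0.67.0, pandas 2.3.3, matplotlib 3.10.9 and scipy 1.17.1 under Python 3.11.15. Sequence letters of this chromosome are not reported here.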

Additional observations from a re-analysis of the deposited data

How the results depend on the processing

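No paired analysis was possible because none of the columns of read counts could be tied to a sample or replicate. For the same reason no group comparison was run with other settings for the replicate number, normalization, filter or left-out samples. Of 16 alternatives over 6 results, 3 of them chosen after seeing the data, 13 were counted as the same and 3 as moved. Those counted as the same include shifts in value, such as those of the CpG ratio and of CGCT below. The median share of unique words likewise went from 100% to 98.1% with words of 31 bases. The count of 7 genes with a region was 7 with a distance of 500 bases or 2 kb, with any overlap, with the comprehensive annotation and with the 5′ end of the gene alone, while the share of all protein-coding genes lay between 60.3% and 64.6%. With regions of at least 200 bases it was 4 (Pcdhac2, Pcdhgb6, Pcdhgc3 and Pcdhgc4), against 58.0% of all protein-coding genes, and the 12 regions elsewhere became 5, in both cases because fewer regions were counted. Without the C-type genes it was 3 of 52. The median CpG ratio was 0.564 and became 0.483 within 1 kb of the 5′ end. The number of genes with CGCT was 45 and became 51 of 57 within 300 bases, where 48.1% of all protein-coding genes had it. The presence of a region depends on depth, which was not examined here, and a weakly open promoter may not have been called.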
